A study of Mus musculus with 2 samples.

Results

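Aminoacyl-tRNA synthetases are the enzymes that attach each amino acid to its transfer RNA (tRNA). Their genes were compared between 2 stably transfected clones derived from the mouse embryonic stem cell line E14tg2a. Both were kept in normal growth medium supplemented with fetal bovine serum (10%) and LIF (1000 U/ml), the cytokine that holds these cells undifferentiated. One stable clone carried a plasmid for a short hairpin RNA against Dab2 (shDAB2-285, clone 4), and the control was a stable clone of the vector plasmid (clone 9). Each clone is 1 isolate of its plasmid and was profiled on 1 mouse 430A array (Affymetrix), and effects of hairpin, clone and culture cannot be told apart. The genes were chosen by symbol: those of the cytosolic and mitochondrial synthetases, of the scaffold proteins Aimp1, Aimp2 and Eef1e1, and of the editing protein Aarsd1. Single-gene probe sets held 30 of these genes on 53 probe sets, out of 12393 genes on 20380 probe sets. The family was proposed after differences of some members on these arrays were known, so the values below are descriptions. Other genes of the family, among them Mars, Dars, Tarsl2 and Aars2, are not analysed here.

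Each synthetase joins 1 amino acid to the tRNAs that read its codons, and the ribosome then takes the amino acid from the charged tRNA. Mammals use separate nuclear genes for most cytosolic and mitochondrial enzymes, by custom with the suffix 2 for the mitochondrial form. Gars and Kars each encode both forms. In the cytosol, several enzymes are held in a multi-synthetase complex by the scaffold proteins Aimp1, Aimp2 and Eef1e1, and the others work outside it. Many cytosolic synthetase genes are known targets of ATF4, the transcription factor induced when eIF2α is phosphorylated, for instance during amino acid shortage.

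The values are log2 expression after RMA normalization, and every difference is shDAB2 minus vector. A single array per clone leaves no replicate error and no test across samples, and no p-value is given. Differences are described by size, with 1.5-fold (0.58 on the log2 scale) as the limit. A gene with several probe sets is represented by the brightest, and genes count as above the floor when the higher value reaches 6.62, the median of all probe-set values. All 30 genes passed. A yardstick is the SD of 0.11 for the difference of 1 probe set, from 2502 genes with a second probe set above the floor. That SD covers disagreement between probe sets on the same arrays and holds no variation between arrays, cultures or clones. Another yardstick is the central 95% of the differences of all 7269 genes above the floor, -0.49 to 0.40. In bulk RNA, fewer cells with a transcript and less transcript per cell cannot be told apart.

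Dab2, the hairpin's target, read 6.33 in shDAB2 cells and 6.64 in vector cells on the probe set with the larger difference, near the floor, and its other probe sets differed by -0.05 and -0.01. All 8 embryonic stem cell markers examined (Pou5f1, Sox2, Nanog, Zfp42, Utf1, Dppa5a, Tdgf1 and Esrrb) were above the floor in each clone, with differences of -0.24 to 0.21. The 3 trophectoderm (Cdx2, Eomes, Elf5), 3 primitive endoderm (Gata4, Gata6, Sox17) and 3 fibroblast markers (Col1a1, Col1a2, Thy1) were below the floor.

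Expression of the synthetase family split by gene. In the shDAB2 clone 8 of the 30 genes were lower by 1.5-fold or more, beside 1.62% of all genes above the floor. Higher by 1.5-fold or more were 0 of 30, beside 0.578% of all genes. At a limit of 0.32 on the log2 scale the counts were 9 lower and 1 higher, beside 6.07% and 4.91% of all genes. By ascending difference the 8 were Sars, Cars, Iars, Nars, Aars, Lars, Yars and Gars, with Tars next. These 9 genes were below the central 95% of all genes. After Tars, at -0.50, came Eprs at -0.23, so a gap separated the 9 genes from the other 21, which ran from -0.23 to 0.58. The median of the 30 genes was -0.10, and that of all genes above the floor was 0.00. By any amount, 22 members were lower, against 49.3% of all genes.

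**Figure D1:**
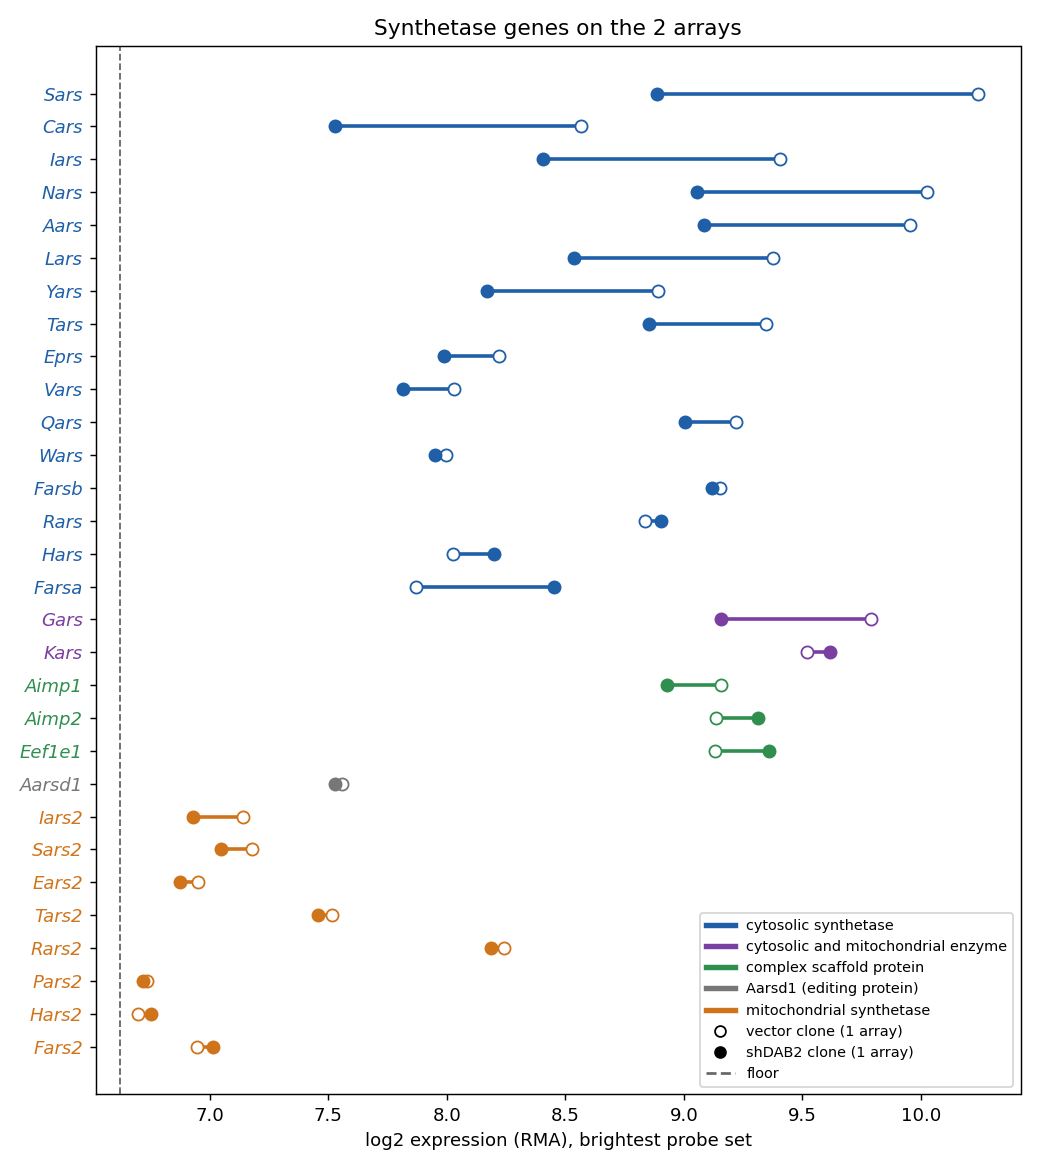
Log2 expression (RMA) of the brightest probe set of each gene (x axis) in the vector clone (open circles) and the shDAB2 clone (filled circles), 1 array each, with genes grouped by compartment; the dashed line is the floor of 6.62. The length of each bar is the difference between the arrays, from Sars at -1.36 to Farsa at 0.58, while positions along the axis do not compare transcripts of different genes.

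The serine enzyme gene showed the largest difference. Sars, on chromosome 3, encodes seryl-tRNA synthetase, which also charges the tRNA used to make selenocysteine. It read 8.88 in shDAB2 cells and 10.24 in vector cells, 2.56-fold lower. The other probe set read 8.65 and 9.97, a difference of -1.32. Only 2 of the 7269 genes above the floor had a larger negative difference.

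Cars (chromosome 7) encodes cysteinyl-tRNA synthetase and was 2.05-fold lower, at 7.53 in shDAB2 cells and 8.56 in vector cells. Its other probe set was below the floor on both arrays, at 6.41 and 6.49, and differed by only -0.09. The Cars difference thus rests on 1 probe set. Sars and Cars were the only members past 2-fold, beside 0.179% of all genes above the floor, and 0 were past it on the higher side, beside 0.0275%.

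Iars (chromosome 13), for isoleucine, read 8.40 in shDAB2 cells and 9.40 in vector cells, 1.9995-fold lower and so just short of the 2-fold limit. Its other probe set, at 7.70 and 8.67, gave a difference of -0.98. Nars (chromosome 18) encodes the asparagine enzyme. It read 9.06 and 10.03, 1.96-fold lower, and its other probe set, at 8.15 and 9.09, gave -0.95. Aars (chromosome 8), for alanine, read 9.09 and 9.95, 1.82-fold lower, with -0.84 on the other probe set.

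The remaining genes past the limit each had 1 probe set. Lars (chromosome 18), the leucine enzyme gene, read 8.54 in shDAB2 cells and 9.37 in vector cells, 1.79-fold lower. Yars (chromosome 4), for tyrosine, read 8.17 and 8.89, 1.65-fold lower. Gars (chromosome 6), whose product charges glycine tRNAs in both compartments, read 9.16 and 9.79, 1.55-fold lower. Tars (chromosome 15), the threonine enzyme gene, lay just inside the limit at 8.85 and 9.35, 1.41-fold lower. The 9 genes lie on 8 chromosomes, with only Nars and Lars on the same one.

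The asparagine synthesis enzyme gene Asns and the transcription factor gene Atf4, both outside the family, were also lower in the shDAB2 clone. Asns differed by -1.82 and -1.81 on its probe sets. Atf4 differed by -1.37 on the brightest of 3, which read 8.61 in shDAB2 cells and 9.99 in vector cells, by -0.59 on the next and by -0.15 on the dimmest. Sars therefore differed by about as much as the brightest Atf4 probe set.

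Promoter windows of RefSeq (GRCm38.p6, from 250 bases before to 50 after a transcript start) were at hand for 21 of the 30 genes. They were searched on both strands for the 8-letter core TGATGNAA of the C/EBP-ATF response element, the type of site through which ATF4 with C/EBP partners is known to act. It occurred in 5 of the 21 member genes (23.8%) and in 4.51% of the 27025 genes with a window, measured here or not. All 21 members were above the floor. Of all 5927 genes above the floor with a window, 143 had the core. The 5 members with the core were Iars, Aars, Yars, Gars and Tars. All were among the 9 lowest members, of which Cars, Nars and Lars had no window. A match in each of these 5 genes is shown because it marks the genes with this element, on the strand of the gene, with the 8 letters in capitals (TTNCATCA is the core on the opposite strand). Positions count from the transcript start as 1, with the base before it as -1.
Iars, chr13:49682127-49682154, + strand, core at 8 to 15: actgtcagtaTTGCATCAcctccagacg
Aars, chr8:111033841-111033868, + strand, core at 10 to 17: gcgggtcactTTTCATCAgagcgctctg
Yars, chr4:129189896-129189923, + strand, core at 4 to 11: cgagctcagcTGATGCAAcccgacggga
Gars, chr6:55037961-55037988, + strand, core at -30 to -23: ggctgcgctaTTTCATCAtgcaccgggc
Tars, chr15:11399656-11399683, - strand, core at -15 to -8: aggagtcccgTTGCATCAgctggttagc

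Read in the forward orientation, the core shown was TGATGCAA in Iars, Yars and Tars, and TGATGAAA in Aars and Gars. The 5 genes with the core differed by -0.9996 to -0.50, with a median of -0.72. The 16 member genes with a window but without the core ran from -1.36 to 0.58, with a median of -0.06. These 16 included mitochondrial enzyme genes, scaffold genes and Aarsd1, while all 5 with the core encode cytosolic or shared enzymes. Core and compartment are thus mixed in these medians. Among the 16, the cytosolic or shared enzyme genes were Sars (-1.36), Eprs (-0.23), Qars (-0.21), Farsb (-0.03), Kars (0.10) and Farsa (0.58). Sars, the lowest, was among these 16, so the core letters do not occur in its window. The 9 members without a window were Cars, Nars, Lars, Vars, Wars, Pars2, Hars2, Rars and Hars. Across all genes above the floor with a window, 10 of 143 with the core were at least 1.5-fold lower (6.99%), against 80 of 5784 without it (1.38%). Leaving out the members, 6 of 138 genes with the core were at least 1.5-fold lower (4.35%). The median difference of the 143 genes was -0.00. The motif was chosen with earlier results of these data known, and any part of ATF4 in these differences was not tested. The cAMP response element TGACGTCA occurred in 0 of the 21 member genes with a window and in 2.03% of all genes with a window. A count of 0 among 21 genes is close to that share. Among the 5927 genes above the floor with a window, 225 had it. Of these 225, 2 were at least 1.5-fold lower (0.889%), against 88 of 5702 without it (1.54%).

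The other cytosolic enzyme genes ran from -0.23 to 0.58. Of 16 enzymes that are cytosolic only, 13 were lower and 3 higher, with a median of -0.36, where 49.3% of all genes were lower. Eprs, whose product charges both glutamate and proline tRNAs, read 7.99 in shDAB2 cells and 8.22 in vector cells, and its 3 probe sets gave -0.26 to -0.15. Vars, for valine, read 7.81 and 8.03, a difference of -0.21. Qars, for glutamine, differed by -0.21 on its brightest probe set, at 9.01 and 9.22, and by -0.23 and 0.02 on the others above the floor. That spread of 0.25 was the widest among the 11 members with several probe sets above the floor.

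Wars, the tryptophan enzyme gene, was close to level on its 4 probe sets, from -0.11 to 0.05. Rars, for arginine, read 8.91 in shDAB2 cells and 8.83 in vector cells. Hars, for histidine, read 8.20 and 8.03 on the brighter probe set, a difference of 0.17, but only 0.04 on the other. Kars, whose product charges lysine tRNAs in both compartments, read 9.62 and 9.52. These differences lay within the range of most genes on the arrays.

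Phenylalanyl-tRNA synthetase is built of α and β subunits, and the genes of these subunits differed. Farsa, the catalytic α subunit gene, read 8.45 in shDAB2 cells and 7.87 in vector cells, higher by 0.58, just short of the 1.5-fold limit, on its 1 probe set. It was the only member above the central 95% of all genes. Farsb, the β subunit gene, read 9.12 and 9.15 on the brightest probe set, and its 3 probe sets above the floor gave -0.10 to -0.00. Farsa lies on chromosome 8, as do Aars at -0.87 and Kars at 0.10, so genes of that chromosome differed in sign.

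**Figure D2:**
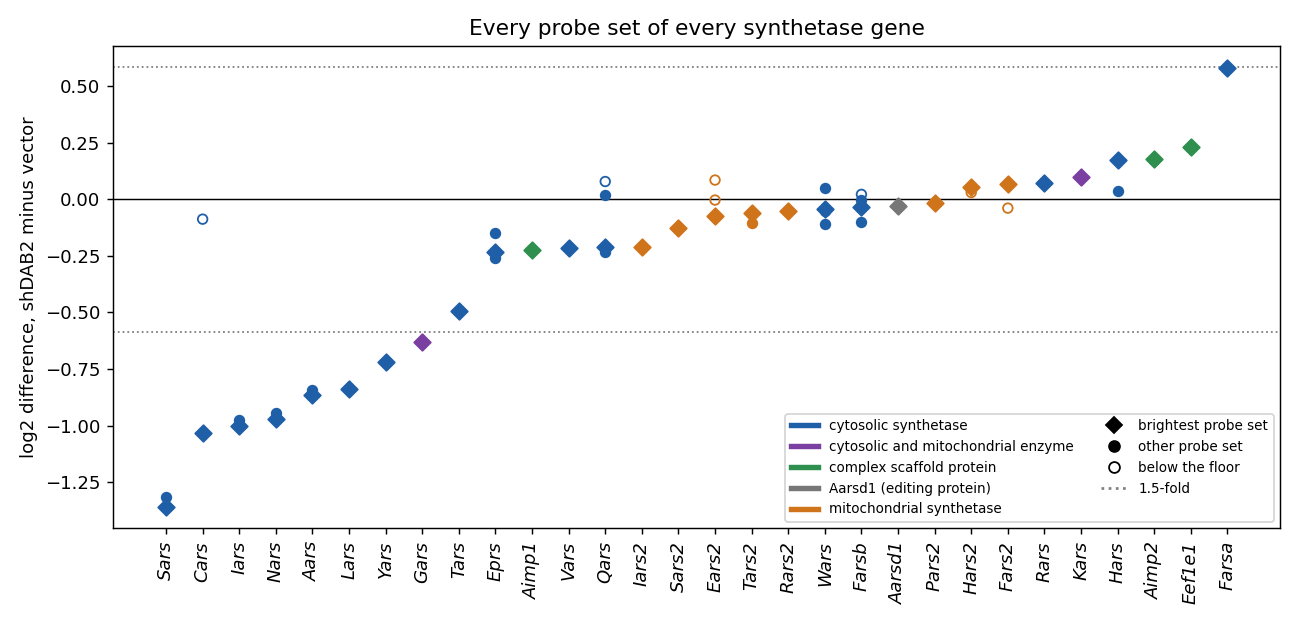
Log2 difference, shDAB2 minus vector (y axis), for all 53 probe sets of the 30 genes, ordered by the brightest probe set (diamonds); circles are other probe sets, open symbols are below the floor and dotted lines mark 1.5-fold. Sars, Iars, Nars and Aars lie past 1.5-fold on each of their probe sets, whereas the dim second probe set of Cars lies near 0.

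Above the floor, probe sets of the same member gene gave similar values. Of 46 member probe sets above the floor, 34 were lower and 12 higher, where 49.3% of all genes above the floor were lower. At least 1.5-fold lower were 12 of the 46, beside 1.53% of all single-gene probe sets above the floor. These counts take each probe set separately, so a gene with several counts more than once. Among 11 genes with several probe sets above the floor, 9 had the same sign on all of them, and the exceptions were Wars and Qars. The range over the probe sets of a gene had a median of 0.05. The 4 genes past the limit that had several (Sars, Iars, Nars and Aars) were past it on every one. The 7 probe sets below the floor differed by -0.09 to 0.08. The lowest of them was the dim Cars probe set, beside -1.03 on the brighter one, a pair that the 11 genes leave out.

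Low genes occurred both inside and outside the multi-synthetase complex. The 6 enzyme genes of the complex comprised Iars at -0.9996 and Lars at -0.84 as well as Eprs at -0.23, Qars at -0.21, Rars at 0.07 and Kars at 0.10. Their median was -0.22, and 2 of 6 were at least 1.5-fold lower. The 12 enzyme genes outside the complex had a median of -0.56, with 6 of 12 at least 1.5-fold lower, where the share over all genes above the floor was 1.62%. With 2 of 6 against 6 of 12 genes, and no replicates, the difference between these groups could not be tested.

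Of the 3 scaffold genes of the complex, 0 were at least 1.5-fold lower. The 1.62% of all genes above the floor would also give that count for 3 genes. Aimp1, which encodes the p43 scaffold protein, read 8.93 in shDAB2 cells and 9.15 in vector cells, a difference of -0.22. Aimp2, the p38 scaffold gene, read 9.31 and 9.14, with 0.18 on the brighter probe set and 0.17 on the other. Eef1e1, which encodes the p18 scaffold protein, read 9.36 and 9.13, a difference of 0.23. Within the complex only Iars and Lars lay outside the central 95% of all genes, and the scaffold genes lay inside it.

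**Figure D3:**
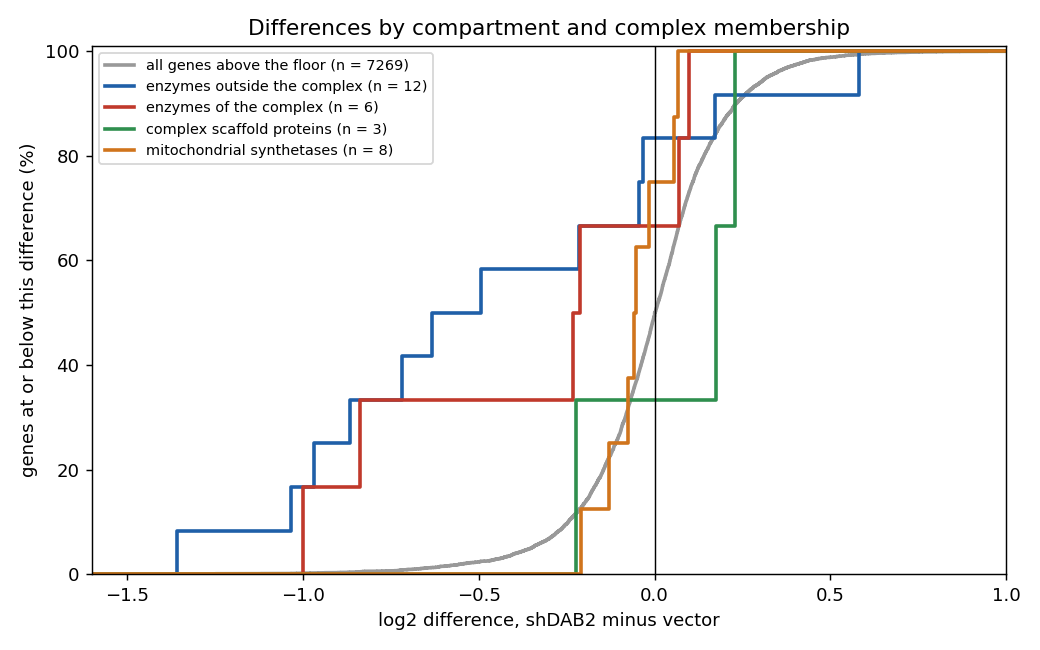
Cumulative percentage of genes (y axis) at or below each log2 difference, shDAB2 minus vector (x axis), for all 7269 genes above the floor and for 4 sets of family members; each step is a gene. The curves of the 12 enzymes outside the complex (median -0.56) and the 6 complex enzymes (median -0.22) start at -1.36 and -0.9996, and that of the 8 mitochondrial synthetases at -0.21.

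Synthetases fall into 2 structural classes by the fold of the catalytic domain, and both contained low genes. Leaving out the mitochondrial genes and Eprs, which holds 1 domain of each class, the 8 class I genes had a median of -0.47 and the 9 class II genes one of -0.50. In each class 4 genes were at least 1.5-fold lower, beside 1.62% of all genes above the floor, whose median difference was 0.00. They were Cars, Iars, Lars and Yars in class I, and Sars, Nars, Aars and Gars in class II.

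Genes of the mitochondrial enzymes differed little. The 8 genes had a median of -0.06, ran from -0.21 to 0.07, and 0 were at least 1.5-fold lower, a count that the 1.62% of all genes above the floor would also give for 8 genes. Iars2, for isoleucine, read 6.93 in shDAB2 cells and 7.14 in vector cells, and Sars2, for serine, 7.05 and 7.18. Ears2 (glutamate) read 6.88 and 6.95 on the probe set above the floor. Tars2 (threonine) differed by -0.06 and -0.10 on its probe sets, and Rars2 (arginine) read 8.19 and 8.24. Pars2 (proline) read 6.72 and 6.73, Hars2 (histidine) 6.75 and 6.70, and Fars2 (phenylalanine) 7.01 and 6.95.

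For amino acids with both enzymes measured, the cytosolic gene carried the larger difference in most cases. Sars differed by -1.36 and Sars2 by -0.13. Iars differed by -0.9996 and Iars2 by -0.21, and Tars by -0.50 and Tars2 by -0.06. Eprs differed by -0.23, against -0.08 for Ears2 and -0.02 for Pars2. For arginine and histidine neither gene was low: Rars and Rars2 gave 0.07 and -0.05, and Hars and Hars2 gave 0.17 and 0.06. For phenylalanine, Farsa gave 0.58 and Farsb -0.03, with Fars2 at 0.07.

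Signal moved with compartment. The mean of both arrays ran from 6.72 to 8.21 for the mitochondrial genes, with a median of 7.01, and from 7.92 to 9.56 for the genes of cytosolic-only enzymes. RMA is known to compress differences of dim probe sets. Within the signal range of the mitochondrial genes, 1.12% of all 4729 genes were at least 1.5-fold lower, among them 1 of the 6 cytosolic enzyme genes in that range (Cars, Eprs, Vars, Wars, Hars and Farsa, median -0.13). Of the 12 brighter cytosolic or shared enzyme genes, 7 were at least 1.5-fold lower, with a median of -0.68, while of all 1559 genes that bright 4.17% were at least 1.5-fold lower, with a median of 0.03. The part of signal in the contrast between compartments was not tested.

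**Figure D4:**
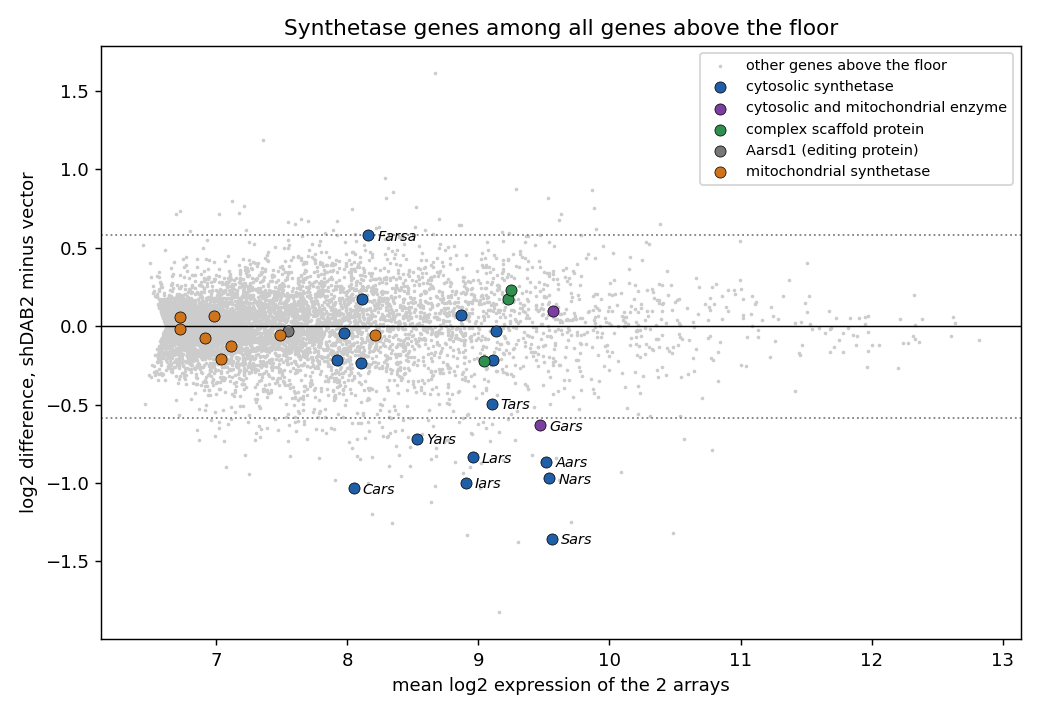
Log2 difference, shDAB2 minus vector (y axis), against mean log2 expression of both arrays (x axis) for all genes above the floor (grey) and the 30 family members (coloured by compartment); dotted lines mark 1.5-fold. Members with a difference beyond 0.4 either way are named, and the mitochondrial genes lie toward the dim end, between 6.72 and 8.21.

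Aarsd1, which encodes a free-standing protein that removes wrongly attached amino acids from alanine tRNA, read 7.53 in shDAB2 cells and 7.56 in vector cells. Dtd1, which removes D-amino acids from tRNA, was 0.10 higher. Lists for other steps of tRNA metabolism held 0 genes that were 1.5-fold lower, a count close to the background share of 1.62% for lists of this size. In a list for tRNA maturation and export, 12 of the 16 above the floor were higher, 4 were lower and 0 passed 1.5-fold either way; the median was 0.14. Its largest differences were the RNase P and MRP subunit genes Rpp25 (0.42) and Pop5 (0.30) and the RNA kinase gene Clp1 (0.39). Xpot, the tRNA export receptor gene, differed by -0.05.

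The counts by sign that follow stand beside 3636 higher and 3585 lower of all 7269 genes above the floor. Past 1.5-fold were 1.62% of all genes on the lower side and 0.578% on the higher. Genes of tRNA modification had a median of 0.05 over 30 genes, with 20 higher and 10 lower and 0 past 1.5-fold. The largest were Lage3 (0.38), a subunit gene of the complex that makes threonylcarbamoyl-adenosine, the methyltransferase gene Trmt10a (0.25) and the adenosine deaminase gene Adat2 (-0.25). Genes of RNA polymerase III, which transcribes tRNA genes, and its factors had a median of 0.07 over 19 genes, with 14 higher and 5 lower. Polr3k (0.45), Polr3g (0.43) and Gtf3c6 (0.43) led them, and 0 passed 1.5-fold. Of 6 genes for mitochondrial tRNA charging partners, which include the subunits that make glutamine tRNA from misacylated glutamate tRNA (Gatb, Gatc and Qrsl1), 5 were higher and Qrsl1 was level, with a median of 0.10. Trnt1 (0.25), the CCA-adding enzyme gene, stands in this list and in that for maturation.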

How the data were processed

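The deposited table holds 1 log2 value per probe set and array, made by the authors with RMA per the submitters' processing notes. The sources used here give neither the RMA version nor whether other arrays were in the run, and the log base was taken from the size of the values. RMA subtracts background, quantile-normalizes and summarises probes, which compresses dim differences. Of 22626 probe sets, 20380 had 1 gene in the platform annotation, 691 had more than 1 and 1555 had no name here, and both kinds were left out. Differences, counts and medians were computed in Python 3.11.15 with pandas 2.3.3, and cyclic loess with limma 3.58.1 in R 4.3.3. The groups came from the sample titles. The count and median procedure was tested on simulated data. Precision is limited by the number of arrays. The members, lists, motifs and limits were chosen with earlier results of these data known. Named genes are all members, Dab2, Atf4, Asns, cell type markers and the 3 largest absolute differences in each of 3 tRNA lists; Xpot, Trnt1, Dtd1, Gatb, Gatc and Qrsl1 were added after their values were seen. The alternatives were loess, centring, the mean of probe sets, leaving out the probe set types _s_at, _x_at and _a_at, which can match several transcripts, other floors, other fold limits and counting probe sets.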

Additional observations from a re-analysis of the deposited data

How the results depend on the processing

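The count of 8 members at least 1.5-fold lower was 8 under cyclic loess, centring, no floor and a floor at the 75th percentile. It was 7 of 27 members with the mean of all probe sets, where Cars came to -0.56. Without _s_at, _x_at and _a_at probe sets, which leaves Sars without a value, it was 7 of 23. By construction a 2-fold limit gave 2 lower genes, and a limit of 0.32 on the log2 scale gave 9 lower and 1 higher. Counting probe sets gave 12 lower. Without _s_at, _x_at and _a_at probe sets, which leaves 12 of the 16 cytosolic genes, their median was -0.61 and that of all members -0.21. With the floor at the 75th percentile, which leaves 24 members, the median of all members was also -0.21. The other 57 of 60 medians and 161 of 164 values of single genes changed by under 0.11, the SD for 1 probe set, and 0 called values changed sign. Many of these values could hardly move by construction. Other floors keep the value of each gene, and centring shifts all genes by the same small amount. The mean leaves a gene with 1 probe set as it was. These counts therefore say little about how stable the differences are. The mitochondrial median ran from -0.08 to -0.06, but not over the same genes. It rested on 5 genes with the mean of probe sets and on 5 without _s_at, _x_at and _a_at probe sets. With the floor at the 75th percentile it rested on 2. No paired analysis was possible because each group has 1 array. For the same reason leaving out a replicate was not possible, and the spread between clones or cultures is unknown.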
